A study of Homo sapiens with 36 samples.

Results

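The miRNAs that co-precipitated with the AGO2 variant p.(Gly604Arg), written G604R, were compared with those bound to wild-type AGO2 (WT-AGO2). The comparison used 6 of 36 small RNA libraries, namely the 3 G604R and the 3 WT-AGO2 libraries made after immunoprecipitation (IP), over all 135 mature miRNAs of the deposited table. HEK293T cells, an established human embryonic kidney line, had been transfected with a plasmid for Flag/HA-tagged WT-AGO2 or for the tagged G604R variant, together with a GFP plasmid in both groups, and the tagged protein was captured with beads against the HA tag. The 3 libraries taken from the lysates of each group before IP (input) and the 3 IP libraries of the Flag/HA-empty vector served as background. The cells still make their own AGO proteins, and the tagged protein is overexpressed, which limits the lines as a model of the variant. The question was whether G604R binds a different set of miRNAs than WT-AGO2.

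AGO2 is the protein at the core of the RNA-induced silencing complex, which holds a short guide RNA and uses it to find complementary mRNAs. A miRNA hairpin is cut into a duplex, of which AGO2 usually keeps the guide strand and discards the passenger strand. Target recognition starts from the seed, the bases near the 5′ end of the guide. In the MirGeneDB names used here an asterisk marks the passenger strand, 5p and 3p the arm of the hairpin, and P with a letter or digit the paralogue, and the species prefix Hsa is left out.

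The results turn on a group of rare miRNAs that passed the test, and on abundant ones that did not. For 9 of these the name in the table gives a RefSeq miRNA and arm, and their mature sequences are shown 5′ to 3′ from RefSeq (GRCh38.p14), with the seed, bases 2 to 8, in capitals. The first 4 passed the test between G604R and WT-AGO2, Mir-375_3p is named by the study for this variant, Mir-671_3p was chosen with its values known, and the last 3 are abundant miRNAs that did not pass.
Mir-361-v1_5p: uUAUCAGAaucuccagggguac
Mir-361-v1_3p*: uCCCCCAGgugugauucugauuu
Mir-1910_5p*: cCAGUCCUgugccugccgccu
Mir-340_3p*: uCCGUCUCaguuacuuuauagc
Mir-375_3p: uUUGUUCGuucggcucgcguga
Mir-671_3p: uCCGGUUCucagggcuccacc
Mir-191_5p: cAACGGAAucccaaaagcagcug
Mir-577_5p: uAGAUAAAauauugguaccug
Mir-769_5p: uGAGACCUcuggguucugagcu
These 9 sequences have 9 different seeds. Both arms of Mir-361 come from the MIR361 hairpin at chrX:85903636-85903707 (minus strand), within an intron of CHM. MIR340 lies at chr5:180015303-180015397 (minus strand), within an intron of RNF130, and MIR671 at chr7:151238421-151238538 (plus strand), where it overlaps an exon of CHPF2. The suffix v1 marks a processing variant of the hairpin in MirGeneDB, so the ends counted by the authors can differ from the RefSeq sequence.

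The depth differed between the groups. The WT-AGO2 libraries held between 6105 and 30793 reads on mature miRNAs and the G604R libraries between 1820 and 3712, while the empty vector IP held between 174 and 202. Mature miRNAs made up 11.0%, 6.24% and 2.23% of all reads in IP of WT-AGO2 and 2.78%, 1.91% and 2.06% with G604R, so WT replicate 3 lay within the range of G604R (p = 0.2 by a two-sided exact permutation test, which cannot go below 0.1 with 3 against 3 libraries). In the empty vector IP this share was 0.362% to 1.02%, with a mean of 0.701%, beside means of 2.25% with G604R and 6.49% with WT-AGO2. How much background entered each profile was not tested. AGO2 itself cannot be checked in a table of miRNAs. Of 15 miRNA families that mark other tissues, 13 were not in the table, among them the liver-specific Mir-122 and the neuronal Mir-124, and Mir-375 and Mir-126 were listed. The labels do not say whether replicates are separate cultures, so the tests measure the spread between these libraries, which may be technical.

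**Figure D1:**
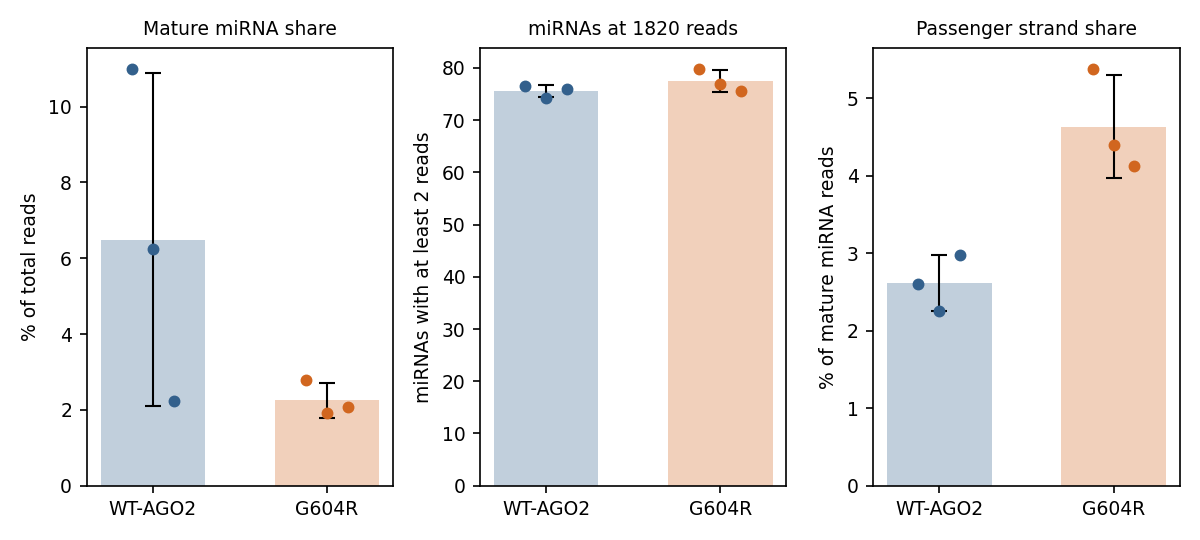
Mature miRNA reads as a percentage of all reads, the number of miRNAs with at least 2 reads when each library is set to 1820 mature reads, and passenger strand reads as a percentage of mature miRNA reads, in IP of WT-AGO2 and G604R. Points are the 3 libraries per group, bars the mean and lines the SD. The passenger strand share of the G604R libraries, 4.12% to 5.38%, lies above that of the WT-AGO2 libraries, 2.26% to 2.98%, whereas the other measures overlap.

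The number of different miRNAs in IP was similar once depth was made equal. At the 1820 mature reads of the shallowest library, the expected number of miRNAs with at least 2 reads was 76.6, 74.3 and 75.9 for WT-AGO2 and 79.9, 77.0 and 75.6 for G604R. The means were 75.6 ± 1.18 and 77.5 ± 2.15 (SD, n = 3), a difference of 1.92 miRNAs that was smaller than the spread (p = 0.3 by the same exact permutation test). Counting every miRNA with at least 1 read turned the direction, with 97.9 ± 2.99 for WT-AGO2 and 90.01 ± 8.16 for G604R (exact permutation test, p = 0.2, n = 3). Values of 1 read are few in the deposited data, 17 over the 6 libraries and 0 in WT replicate 1. Cut to 1820 reads, WT replicate 1 had 99.8 miRNAs with at least 1 read. G604R replicate 2, used at its own depth, had 81. The count from 1 read thus does not compare like with like.

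No abundant miRNA passed the test over all miRNAs, which does not show that both proteins bound them in the same proportions. A miRNA was called abundant if its mean share over the 6 libraries came to at least 10 reads in the shallowest one. This held for 27 miRNAs, which together made up between 85.5% and 87.6% of the mature reads of each library. The last one inside was Mir-10-P2b_5p at 10.01 expected reads, and the first one outside was Mir-17-P4d_5p at 9.67. After median-of-ratios scaling, a miRNA was called where limma gave an adjusted p below 0.05 with a log2 fold change beyond 1 in size. Of 123 tested miRNAs 6 were called (4.88%), and of the 27 abundant ones 0, with 1 of these at an unadjusted p below 0.05. The log2 fold changes of the 27 had a median of 0.01, with 15 above 0 and 12 below, against a median of -0.34 over all tested miRNAs. This scaling centres the miRNAs that are above 0 in all 6 libraries, so a median near 0 follows largely from it. Scaled to mature reads, the 27 had a median of 0.17, with 20 above 0 and 7 below. For 20 of the 27, the 95% interval lay within 1 log2 unit on either side of 0, so a change of 2-fold or more was outside the interval. For the rest the interval reached further, with bounds down to -1.38 and up to 2.17. Correlations of log2 CPM across these 27 miRNAs were 0.91 to 0.95 between libraries of different groups, 0.91 to 0.95 within WT-AGO2 and 0.91 to 0.94 within G604R. The miRNAs are not independent replicates, so these values are a description.

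The proportions depend on the scaling, since the deposited RPM relate each miRNA to all reads of the library. On RPM as deposited, 26 of the 27 abundant miRNAs had a negative log2 fold change, with a median of -1.10, and none was called, while over all 123 the median was -1.39 and 11 lay above 0 and 112 below, against 43 and 80 with median-of-ratios scaling and 54 and 69 when scaled to mature reads. All further changes are relative to that scaling or to the mature miRNA reads.

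**Figure D2:**
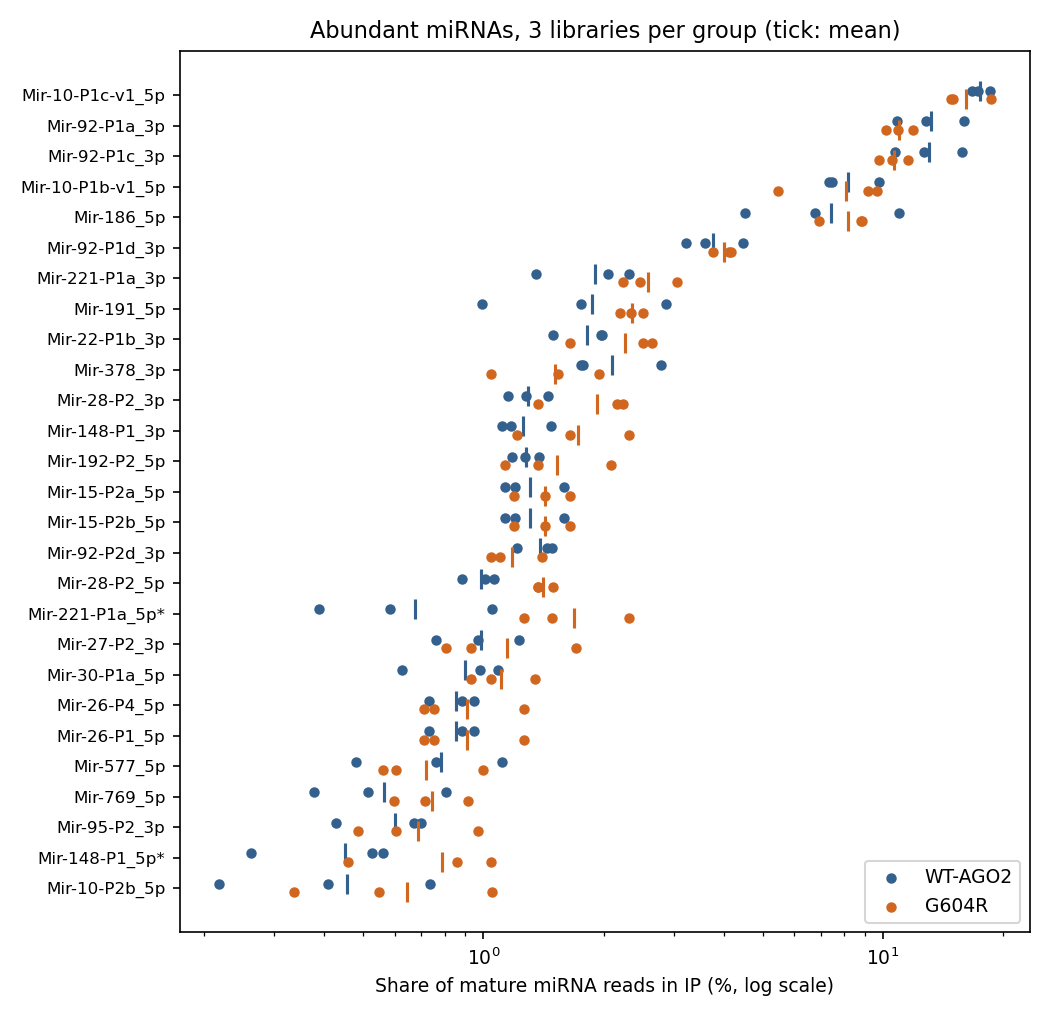
Share of mature miRNA reads in IP (percent, log scale) of the 27 abundant miRNAs, in order of mean share, for the 3 WT-AGO2 and 3 G604R libraries, with the group mean as a tick. The libraries of the groups overlap for most miRNAs, and the G604R points of Mir-221-P1a_5p* and Mir-28-P2_5p lie to the right of all WT-AGO2 points.

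Mir-10-P1c-v1_5p, a guide of the Mir-10 family encoded in part within the HOX clusters, was the most abundant miRNA. It held 16.7%, 18.5% and 17.3% of mature reads with WT-AGO2 and 18.6%, 14.8% and 15.0% with G604R. Its log2 fold change was -0.28 (SE 0.22, limma adjusted p = 0.517). The next most abundant guide was Mir-92-P1a_3p, of the family that includes the miR-17-92 cluster member miR-92a. It stood at 15.9%, 12.8% and 10.9% with WT-AGO2 and at 10.2%, 10.9% and 11.9% with G604R. Its log2 fold change was -0.41 (SE 0.23, limma adjusted p = 0.397). After scaling, its 3 G604R libraries were below the 3 WT-AGO2 libraries, but by share of mature reads the groups overlapped. Mir-92-P1c_3p, whose reads differ from those of Mir-92-P1a_3p by under 5% in each of the 6 libraries, cannot be separated from it.

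The other 7 of the 10 most abundant miRNAs also did not pass the test. Mir-10-P1b-v1_5p had 8.19% ± 1.38 with WT-AGO2 and 8.09% ± 2.29 with G604R (SD, n = 3). Mir-186_5p stood at 4.52%, 6.77% and 11.0% with WT-AGO2, and the G604R libraries lay within that range at 6.91%, 8.79% and 8.84%. Mir-92-P1d_3p, Mir-191_5p and Mir-22-P1b_3p had log2 fold changes of -0.05, 0.30 and 0.15, each with an adjusted p above 0.6. Mir-378_3p, whose hairpin lies in an intron of a gene of energy metabolism, had the most negative value of the 27 at -0.64 (SE 0.32, limma adjusted p = 0.397). Its shares were 2.79%, 1.77% and 1.75% with WT-AGO2 and 1.94%, 1.04% and 1.54% with G604R, so the groups overlapped.

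Mir-221 stood out among the abundant miRNAs. The passenger strand Mir-221-P1a_5p* made up 0.585%, 0.389% and 1.05% of mature reads with WT-AGO2, from 180, 25 and 64 reads, and 2.32%, 1.26% and 1.48% with G604R, from 62, 23 and 55 reads. All 3 G604R libraries were above all 3 WT-AGO2 libraries, as in 8 of the 123 tested miRNAs (6.5%). The log2 fold change was 1.24 (SE 0.40, 95% interval 0.31 to 2.17), with an unadjusted limma p of 0.0154 and an adjusted p of 0.237 over the 123 miRNAs. When limma was fitted again on the 27 abundant miRNAs alone, it was the single call (adjusted p = 0.0152). That fit estimates the variance trend from these 27. The unadjusted p therefore changed too, and the call does not come from fewer tests alone. Its guide Mir-221-P1a_3p, a miRNA known to restrain the cell cycle inhibitor CDKN1B, stood at 1.35%, 2.32% and 2.05% with WT-AGO2 and 2.24%, 2.47% and 3.04% with G604R, with a log2 fold change of 0.31 (SE 0.22, adjusted p = 0.473). The passenger share within this hairpin was 30.2%, 14.4% and 33.9% with WT-AGO2 and 50.8%, 33.8% and 32.7% with G604R, so the groups overlapped. In the inputs, Mir-221-P1a_5p* had 33, 15 and 19 reads with WT-AGO2 and 3, 9 and 0 with G604R, at mean shares of 0.461% and 0.335%. It was listed at 0 in the 3 empty vector IP libraries.

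Summed over its 3 strands, the Mir-221 family held 2.15%, 3.02% and 3.26% of mature reads with WT-AGO2 and 5.04%, 4.12% and 4.82% with G604R. The groups did not overlap, which was so for 2 of 23 families tested (8.7%). The log2 fold change was 0.75 (SE 0.27, 95% interval 0.21 to 1.29), with a limma adjusted p of 0.170. All 3 strands had a positive log2 fold change, except that on RPM as deposited 2 of the 3 were below 0. The other family without overlap was Mir-28, at 2.81%, 2.46% and 2.46% against 3.88%, 3.30% and 3.798%, with a log2 fold change of 0.51 (SE 0.28, adjusted p = 0.689). Its arm Mir-28-P2_5p stood at 1.06%, 1.01% and 0.885% with WT-AGO2 and at 1.49%, 1.37% and 1.37% with G604R (log2 fold change 0.37, SE 0.19, adjusted p = 0.397).

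**Figure D3:**
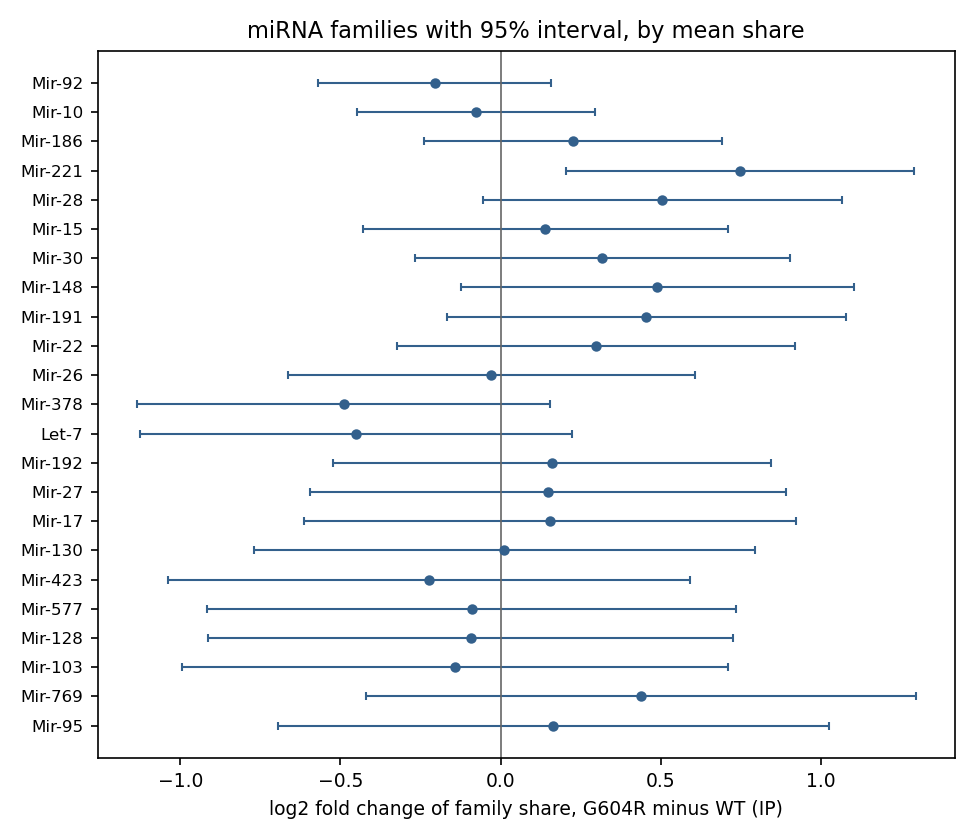
log2 fold change of the family share of mature miRNA reads in IP, G604R minus WT-AGO2, for the 23 families tested, in order of mean share, with the 95% interval from limma. Only the interval of Mir-221, 0.21 to 1.29, lies wholly on 1 side of 0.

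None of the 23 families was called (0%), and 1 had an unadjusted p below 0.05. The Mir-92 and Mir-10 families held most reads. Mir-92 stood at 31.4% ± 5.93 with WT-AGO2 and 27.0% ± 1.73 with G604R (SD, n = 3), and Mir-10 at 26.3% ± 2.15 and 25.0% ± 3.58. Mir-15, Mir-30 and Mir-148 had log2 fold changes of 0.14, 0.32 and 0.49, none past the test. The 10 members of Let-7, a family that restrains growth-promoting genes, were all near the read limit, and none was called. Their log2 fold changes lay between -3.63 and -0.05 with a median of -0.61, against -0.34 over all tested miRNAs, and after scaling to mature reads 3 of the 10 were above 0. The family held 1.75% ± 0.455 with WT-AGO2 and 1.27% ± 0.327 with G604R (SD, n = 3, limma adjusted p = 0.719). No member of Mir-17 (7 tested), Mir-19 (2), Mir-181 (6), Mir-26 (3), Mir-320 (3), Mir-188 and Mir-362 (3) or Mir-148 and Mir-130 (7) was called, and the medians of their log2 fold changes were -0.98, -2.57, -1.15, -0.11, -0.34, -0.49 and -0.14. Of the 4 arms of Mir-28 that were tested, 1 was called, and it was lower.

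All 6 calls lay near the read limit. They were 6 of the 96 miRNAs in this range, of which 14 had an unadjusted p below 0.05. In 1 of them G604R was higher (0.813% of the 123 tested) and in 5 it was lower (4.07%). The median log2 fold change was -0.58 and the median SE 1.17, against an SE of 0.25 for the abundant miRNAs. Each of the 6 was listed at 0 in all 3 libraries of a group. In simulated libraries of the same depths this test also called many miRNAs that had not been changed, nearly all of them near the read limit. They made up 48.2% of the calls over 40 runs. The spread in the simulation was assumed and not fitted to these libraries. On that setting the adjusted p-values in this range are too small. At 5 of the 6 G604R was the group at 0, and at the remaining one it was WT-AGO2.

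**Figure D4:**
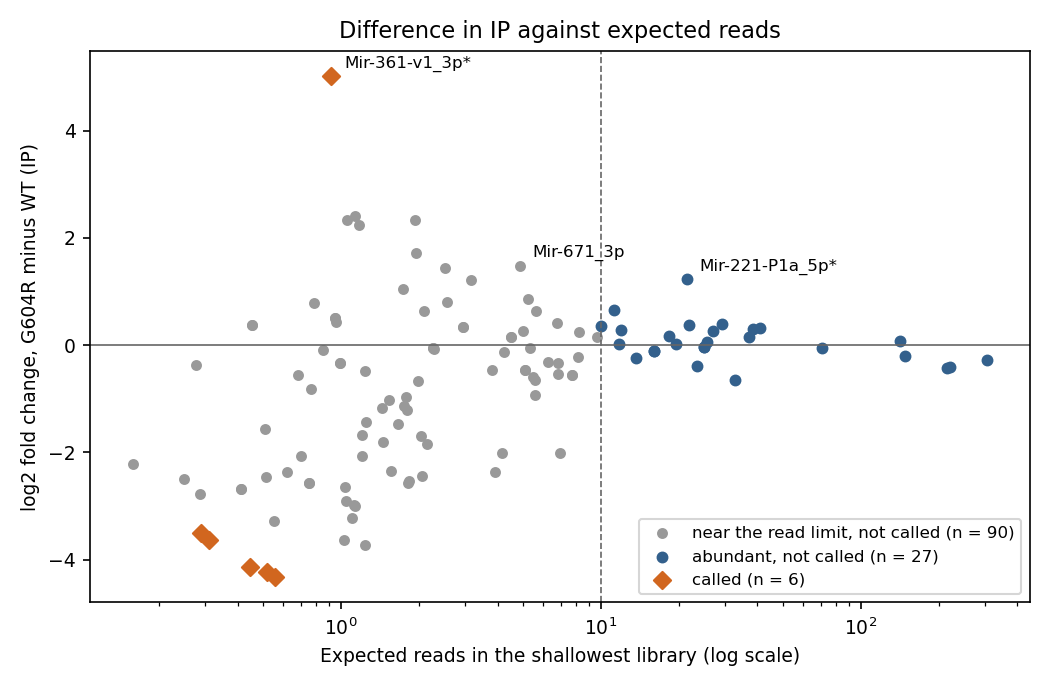
log2 fold change in IP, G604R minus WT-AGO2, against the reads expected in the shallowest library (log scale) for 123 tested miRNAs. The 6 called miRNAs (diamonds) lie left of the dashed line at 10 reads, where values spread from -4.33 to 5.02, and the 27 abundant miRNAs to its right lie between -0.64 and 1.24.

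Mir-361-v1 was called on both arms, in opposite directions. The passenger strand Mir-361-v1_3p* was listed at 0 in the 3 WT-AGO2 libraries and had 3, 2 and 3 reads with G604R (log2 fold change 5.02, SE 0.90, limma adjusted p = 0.0295). The guide strand Mir-361-v1_5p had 13, 2 and 6 reads with WT-AGO2 and 0 in each G604R library (log2 fold change -4.24, adjusted p = 0.0295). In the inputs the passenger strand was listed at 0 throughout, while the guide had 2, 2 and 3 reads with WT-AGO2 and 0 in each G604R library. The guide was thus also called lower in the G604R input (log2 fold change -2.70, SE 0.61, adjusted p = 0.0310), as were 6 of 130 miRNAs there (4.62%), where 1 of the G604R inputs had 9395 reads in all. Mir-361-v1_5p was at 0 in the empty vector IP as well.

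The other 4 calls were lower with G604R and at 0 in its 3 libraries. Mir-1910_5p* had 32, 3 and 2 reads with WT-AGO2, so that replicate 1 held 86.5% of them (log2 fold change -4.33, adjusted p = 0.0295). Mir-192-P1_5p, a miRNA of the p53-induced Mir-192 family, had 16, 4 and 2 reads (log2 fold change -4.14, adjusted p = 0.0295). Mir-28-P1_5p had 7, 3 and 2 reads (log2 fold change -3.64, adjusted p = 0.0295), and its partner arm Mir-28-P1_3p had 86, 16 and 16 with WT-AGO2 and 4, 10 and 10 with G604R. Mir-340_3p* had 5, 3 and 2 reads (log2 fold change -3.50, adjusted p = 0.0325). All adjusted p here are from limma on log2 of scaled RPM plus 1 RPM, so that the size of a fold against 0 depends on that pseudocount.

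At the WT-AGO2 share, the G604R libraries would have held few reads of these miRNAs. Over the 3 libraries together, 5.02 reads of Mir-1910_5p*, 4.70 of Mir-361-v1_5p, 4.02 of Mir-192-P1_5p, 2.80 of Mir-28-P1_5p and 2.62 of Mir-340_3p* were expected. A count of 0 allows up to 3 reads, or a mean share of 0.119% in a G604R library, and the mean WT-AGO2 shares of all 5 were below it, from 0.0319% to 0.0611%. Set against the 3 libraries together, the expected reads of the first 3 of these miRNAs were above 3 and those of the other 2 below. For Mir-361-v1_3p* the group at 0 was WT-AGO2, where 3 reads are a mean share of 0.0352%, and its 0.101% in G604R lay above that limit from 2 or 3 reads a library. The fitted log2 fold changes of all 6 depend on the pseudocount and are no bounds on the true ratio. These limits cover counting error only, and they take a listed 0 as a true 0. Values of a single read are few in the deposited data, 17 over the 6 libraries. A listed 0 may therefore hide a single read, which was not tested. The limits would then be too low, and the expected reads of the first 3 miRNAs might not exceed theirs.

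**Figure D5:**
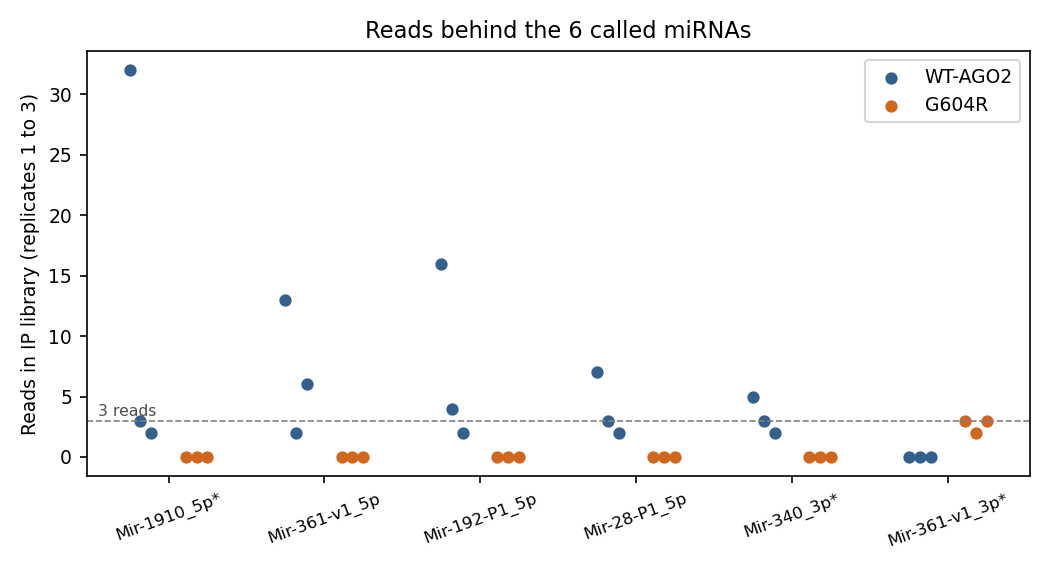
Reads in each IP library for the 6 called miRNAs, with WT-AGO2 and G604R replicates 1 to 3 from left to right and a dashed line at 3 reads. Only WT-AGO2 replicate 1 rises above 6 reads, and all G604R libraries hold 0 to 3.

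The number of calls depended on single libraries and settings. Without G604R replicate 1 or replicate 2 no miRNA was called by limma, with 16 and 12 at an unadjusted p below 0.05, and without G604R replicate 3 there were 14 calls. There were also 0 calls on RPM as deposited, without the low-value filter, or after adding 10 RPM in place of 1, with 31, 13 and 13 at an unadjusted p below 0.05. Mir-375_3p, a miRNA of endocrine cells named by the study for this variant, had 41, 0 and 3 reads with WT-AGO2 and 0 in each G604R library (log2 fold change -3.28, limma adjusted p = 0.318), and was called only without WT replicate 2 (adjusted p = 0.00418). Mir-671_3p had 58, 6 and 7 reads with WT-AGO2, or 0.132% of mature reads, and 9, 8 and 16 with G604R, or 0.402%. The G604R libraries were all above the WT-AGO2 libraries, as in 8 of the 123 tested miRNAs (6.5%), and this miRNA was chosen with its values known. Its log2 fold change was 1.49 with a limma adjusted p of 0.144.

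Passenger strands took a larger share of the bound miRNAs with G604R. They made up 2.60%, 2.26% and 2.98% of mature reads with WT-AGO2 and 5.38%, 4.40% and 4.12% with G604R. Between 80 and 153 passenger reads stood behind each G604R value, and up to 800 behind a WT-AGO2 value. The means were 2.61% ± 0.363 and 4.63% ± 0.661 (SD, n = 3), a ratio of 1.77, and the groups did not overlap (p = 0.1 by the exact permutation test, its lowest possible value). In the inputs the shares were 1.61%, 0.749% and 1.93% with WT-AGO2 and 3.59%, 1.33% and 0.368% with G604R, where replicate 1 of G604R rests on 446 mature reads. Passenger strands were listed at 0 in the empty vector IP.

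A few strands made up most of this difference. Mir-221-P1a_5p* accounted for 50.1% of it and Mir-148-P1_5p* for 16.7%. Mir-148-P1_5p* stood at 0.526%, 0.560% and 0.262% with WT-AGO2 and at 0.859%, 1.04% and 0.458% with G604R, which overlap (log2 fold change 0.65, SE 0.41, limma adjusted p = 0.397). Without Mir-221-P1a_5p*, the passenger share was still 1.95% ± 0.0758 with WT-AGO2 and 2.996% ± 0.274 with G604R (SD, n = 3), with no overlap (exact permutation test, p = 0.1). The mean passenger share over 17 hairpins with both arms and a marked passenger strand, each given equal weight, was 21.9% ± 2.58 and 28.5% ± 3.86, also without overlap. A hairpin without reads in a library was left out there, so the set differed between libraries. Mir-181-P1b, Mir-340 and Mir-21 were missing in G604R replicate 2, which had the highest mean, 32.8%. In this mean Mir-361-v1 went from 0% in each WT-AGO2 library to 100% in each G604R library, on 2 or 3 passenger reads. The mean was not computed without this hairpin, so it is no separate evidence of a rise across hairpins. The next strands in size were near the read limit and were named after their values were seen. Mir-126-P2-v1_5p* had 54, 10 and 14 reads with WT-AGO2 and 8, 10 and 12 with G604R, or 0.187% against 0.391%. Mir-181-P1a_3p* stood at 0.0963% against 0.250%, Mir-130-P3b_5p* at 0.3004% against 0.447% and Mir-128-P2_5p* at 0.0688% against 0.207%. The groups overlapped for Mir-130-P3b_5p* (limma adjusted p = 0.517). They did not overlap for the other 3, as was so for 24 of the 123 tested miRNAs (19.5%), and their adjusted p was 0.318 each.

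The higher share did not hold for every passenger strand. Of 25 in the table, 13 had a higher mean share with G604R, 9 a lower one and 3 were at 0 in all 6 libraries. Of the 21 that were tested, 3 were called, of which the first was higher and the others lower, namely Mir-361-v1_3p*, Mir-1910_5p* and Mir-340_3p*, beside 6 of 123 over all tested miRNAs (4.88%). All 3 had a group at 0 and lay near the read limit, where on the setting of the simulation the adjusted p are too small. The median log2 fold change of the 21 was -0.82. Mir-10-P1c-v1_3p*, the partner of the most abundant guide, had 38, 5 and 8 reads with WT-AGO2 and 2, 0 and 0 with G604R (log2 fold change -3.72, adjusted p = 0.318).

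The balance of the arms was then tested for each hairpin. The ratio of passenger to guide strand was called for 2 of 22 hairpins (9.09%) at an adjusted p below 0.05, and 3 had an unadjusted p below 0.05. For Mir-361-v1 only the guide was listed with WT-AGO2, at 13, 2 and 6 reads. With G604R only the passenger was listed, at 3, 2 and 3 reads (limma adjusted p = 4.44e-05). These reads also gave the calls of its arms in IP, so the ratio restates those calls and is no separate evidence. Its size depends on the pseudocount, and the guide was also unlisted in the G604R inputs. For Mir-28-P1, where both arms are unmarked and the less abundant one was taken as the passenger, the ratio was lower with G604R (adjusted p = 0.00193), and this call was lost with a pseudocount of 100 CPM (adjusted p = 0.159). With hairpins of at least 10 expected reads none was called. The hairpins with the most passenger reads were Mir-28-P2, Mir-221-P1a and Mir-148-P1, and their log2 ratios changed by -0.02, 0.93 and 0.39 (adjusted p = 0.975, 0.611 and 0.749 from limma). Mir-128-P2, whose guide is abundant in neurons and which was named after its values were seen, had a passenger share of 18.6%, 13.0% and 16.7% with WT-AGO2 and of 50%, 50% and 36.4% with G604R (adjusted p = 0.231). Its passenger strand rests on 3 to 24 reads a library.

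Finally, the difference in IP was set against the difference in the lysates. The interaction of IP and input was called for 2 of 130 miRNAs (1.54%). Both were among the 6 calls in IP, namely Mir-361-v1_3p* with a coefficient of 3.83 (SE 0.50, limma adjusted p = 0.00123) and Mir-340_3p* with -2.36 (SE 0.47, adjusted p = 0.0258), and both were at 0 in all 6 input libraries. No input difference was thus measured for either, and their interaction restates the call in IP. No abundant miRNA was called for this interaction.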

How the data were processed

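Small RNA was sequenced from lysate (input) and anti-HA IP of HEK293T cells. Reads were annotated by the authors with sRNAbench against MirGeneDB, and they deposited RPM values, relative to all reads of a library, for 135 mature miRNAs; the submitters' processing notes name GRCh38. How reads shared by paralogues were adjusted is not given in the sources used here. 14 sets of 29 entries share all or nearly all reads. Values divided by the RPM worth of 1 read came out whole in all cases (tolerance 0.001), which gave the reads behind each value. They could not be established as unadjusted counts, so no count model was run.

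RPM were scaled by median of ratios, and miRNAs at 1 scaled RPM or more in at least 2 of 3 libraries of a group were tested with limma 3.58.1 (R 4.3.3) on log2(RPM + 1), with Benjamini-Hochberg adjustment. Fold changes are on this scale. For a miRNA not listed in a group, their size depends on the pseudocount, which was worth less than 1 read. Families used log2(CPM + 50) and strand ratios a pseudocount of 1 CPM, CPM being relative to mature reads. Shares were tested by exact permutation. Tested on simulated data, the fit of single miRNAs recovered most large changes of abundant miRNAs but also called unchanged ones near the read limit, beyond the nominal rate. A test of guide bases was not run, since sequences matched 26 of 135 miRNAs, with at most 7.24% of reads against the 80% required.

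Members and lists were chosen with earlier results of these data known. Named were all calls, the 10 most abundant miRNAs, up to 5 abundant miRNAs each with the largest rise and fall among those without overlap, Mir-375_3p and others the study names for G604R, Mir-671_3p, the 8 largest families, and hairpins called or with the most passenger reads. RefSeq sequences and GENCODE v29 genes share GRCh38.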

Additional observations from a re-analysis of the deposited data

Results flagged for a closer look

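The interaction of IP and input between G604R and WT-AGO2, from a limma fit over 12 libraries, passed the test for 2 miRNAs. It was 3.83 on the log2 scale for Mir-361-v1_3p* and -2.36 for Mir-340_3p*. With IP and input of the same group and replicate number as a block, limma gave adjusted p = 0.000796 and 0.0178. Both strands were at 0 in all 6 inputs, so that no difference in the lysate was measured. The values restate the calls in IP, which rest on 2 to 5 reads a library in the group where the strand was listed, and do not show that IP and lysate differed.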

How the results depend on the processing

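The count of 6 calls in IP was 6 with a pseudocount of 0.5 RPM, with scaling to mature reads or TMM, and with shared entries counted once, a setting chosen after seeing the data. It was 0 with a pseudocount of 10 RPM, without the filter on low values, on RPM as deposited, and with a pseudocount worth 3 reads, also chosen afterwards, and 2 in a fit of all 5 AGO2 groups. Leaving out each library gave 0 to 14 calls. Testing only abundant miRNAs, with limma fitted again on them, gave 1 call, among all and among abundant ones. No other setting gave an abundant call. Libraries of the same replicate number had weakly correlated deviations (0.0560, 0.156 and 0.127). Over the abundant miRNAs, WT-AGO2 and G604R correlated at 0.924, 0.941 and 0.954 for replicates 1, 2 and 3. All pairs between the groups ranged from 0.908 to 0.954. Whether the numbers pair the libraries is therefore not settled. With the number as a replicate block, 0 miRNAs, 2 strand ratios and 0 families were called, and the mature share differed by -4.24 percentage points (exact test over sign changes, p = 0.25, the smallest possible). Strand ratio calls fell to 1 with a pseudocount of 100 or 500 CPM and to 0 with hairpins of at least 10 expected reads, also at 100 CPM, a combination added afterwards; leaving out libraries gave 2 to 5, with 5 without G604R replicate 1. Interaction calls were 1 with a pseudocount of 10 RPM and 2 with IP and input of the same group and replicate number as a block. They were 1 to 5 when 1 replicate of a group was left out. No family was called under any setting. The number of miRNAs at equal depth differed by -7.91 with at least 1 read, against 1.92. Values of 1 read are few in the deposited data, so the first count does not compare like with like. The cause was not tested further. The passenger share kept its direction under all settings, of which the mean over hairpins rests in part on Mir-361-v1. That mean also covers a set of hairpins that differed between libraries.

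Small differences changed sign. On RPM as deposited, Mir-186_5p was at -1.04, Mir-221-P1a_3p at -0.80, Mir-191_5p at -0.81, Mir-22-P1b_3p at -0.97 and Mir-28-P2_5p at -0.74. Mir-92-P1d_3p was at 0.11 when scaled to mature reads and at 0.11 in the fit of 5 groups, and the Mir-15 family at -0.0129 with median-of-ratios scaling. Leaving out single libraries gave -0.22 to 0.364 for Mir-186_5p, -0.0765 to 0.637 for Mir-191_5p, -0.00578 to 0.327 for Mir-22-P1b_3p, -0.190 to 0.10 for Mir-92-P1d_3p, -0.382 to 0.0329 for Mir-10-P1b-v1_5p, -0.0833 to 0.555 for the Mir-186 family, -0.184 to 0.0215 for the Mir-10 family and -0.229 to 0.10 for the Mir-28-P2 ratio. The count tests and the test of sequence features were not run. With 1820 to 3712 mature reads with G604R, a single library at 0 cannot set any of the 5 lower calls apart from its WT-AGO2 share.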

Other observations

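The share of passenger strands among mature reads, which was higher with G604R than with WT-AGO2, was also computed for the other libraries. In IP it was 3.95% ± 0.508 for F182del, 1.87% ± 0.411 for N359H and 1.68% ± 0.534 for D619N (SD, n = 3), beside the 4.63% ± 0.661 of G604R. The mean shares in the inputs of the other 5 groups lay between 0.930% for the empty vector and 1.71% for F182del, and the G604R inputs stood at 3.59%, 1.33% and 0.368%, the first from 16 passenger reads. Mir-361-v1_3p*, at 0 with WT-AGO2, had 2, 0 and 2 reads in IP of F182del and 0, 2 and 0 in IP of N359H, and was at 0 in every input. Differences between these variants and G604R were not tested.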
